A study of Mus musculus with 66 samples.

Results

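Chromatin remodelling and histone-modifying genes were followed in mouse cerebellum across age and diet. The members were chosen and classed by the start of their symbol. Smarc, Chd and Arid genes were classed as nucleosome remodellers, and Brd and Cbx genes as readers of histone marks. Kmt, Setd, Ehmt and Ezh genes were classed as histone methyltransferases, and Kdm genes as histone demethylases. Hdac and Sirt genes were classed as deacetylases, and Dnmt genes as DNA methyltransferases. A member need not have the activity its class is named for, as with Setd3, a methyltransferase of actin. Symbols came from probes annotated with 1 symbol only, and probes of a gene were averaged with no filter on signal. This gave 51 genes on 66 probes, of 4209 genes with a symbol and 7782 genes or single unnamed probes tested in all. The classes held 17 remodelling factors, 7 readers, 12 histone methyltransferases, 7 histone demethylases, 6 deacetylases and 2 DNA methyltransferases.

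Nucleosomes package DNA and limit access to it. Remodellers use ATP to slide or evict them, methyltransferases and acetyltransferases write marks on histone tails, demethylases and deacetylases erase them, and bromodomain or chromodomain proteins read them. In cerebellum these enzymes are known from granule neuron maturation and from neurodevelopmental disorders, and NAD-dependent sirtuins are widely studied in relation to ageing and food intake.

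For every mouse, radiolabelled cDNA made from total RNA was laid on a separate nylon membrane spotted with cDNA clones. All animals were C57BL/6 of both sexes. Calorie-restricted mice were given regular feed for 13 weeks and a ration lowered in steps to 60% afterwards, and 9 such mice were 6 months old, 10 were 16 months old (8 used) and 8 were 24 months old (7 used). Ad libitum mice received regular feed throughout. Of these, 5 were 17-21 days old, 5 were 33-44 days old, 10 belonged to the 6-month cohort, 10 to the 16-month cohort and 9 to the 24-month cohort. The restricted males of the oldest cohort were all 673 days old, against 719 to 743 days in the ad libitum males, so diet and age cannot be told apart there. Values are Z scores, in which 1 unit is 1 SD of all probes on the array. A Z score places a probe within its own filter, depends on the clone as well as on the transcript, and cannot be turned into a fold. In whole tissue, fewer cells of a type and less RNA per cell cannot be told apart.

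Of the 66 arrays, 3 correlated poorly with the rest (0.695, 0.701 and 0.820, against 0.921 or more for the others) and were left out, which left 63. On 2 of them, both from restricted mice of 16 months, probes at the eighth place of each run of 22 averaged -2.70 and -2.69, against 0.309 on the arrays used, and 6 members have such a probe: Smarcb1, Arid4a, Smarcd2, Brd2, Cbx1 and Sirt1. Sex-linked transcripts did not separate the sexes. The probe named Xist, the RNA of the inactive X chromosome, averaged -0.983 ± 0.153 in 28 adult females and -1.02 ± 0.164 in 25 adult males (SD), and Uty, a gene of the Y chromosome, averaged -0.717 ± 0.172 in the females and -0.738 ± 0.155 in the males. Probes that share a gene name correlated within groups by a median of -0.0668 in members and 0.116 in other genes. These values were not set against probes of different names. Whether the annotation matches the probes of this table is in doubt and was not tested, and every gene name here stands for a probe as annotated. Mice also differed by the run of array numbers they belonged to, and the labels do not say whether the 5 runs are batches. Within groups of adult mice these runs took up a median of 27.9% of the sum of squares of a member, against 23.9% over all features, and up to 50.2% for Hdac11. Of the cell type markers, 18 were on the filter. The Purkinje cell gene Car8 had a mean Z score of 0.841 and Calb1 one of -0.0150, and the lists of granule neurons, oligodendrocytes, endothelium and choroid plexus had no probe.

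Fewer of the chromatin genes than of all features had a mean Z score above 0. Of the 51 members, 18 (35.3%) had a mean Z score above 0 over the 63 arrays, against 48.7% of all features, and their median was -0.391 against -0.0281. All features include unnamed single probes, and the share among named genes is not given here. The difference in share was not tested. Among remodelling factors, 6 of 17 were above 0. Smarcb1, a core subunit of the BAF (SWI/SNF) complex, was the highest at 1.61 ± 0.159 (SD over 29 adult ad libitum mice), followed by its partner Smarcc1 at 0.615. The ATPases of that complex differed in place: Smarca4 stood at 0.338 and Smarca2 at -1.20. Smarcc2, the paralogue of Smarcc1, was the lowest of the class at -1.63. Its probe sat at place 21 of its run of probes, where all probes averaged -1.21. The probe of Smarcc1 sat at place 14, with an average of 0.576. The part of place in these levels was not tested. The Z scores rank probes on a filter and give no order of transcript abundance.

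All 7 readers lay below 0. Brd3, a bromodomain protein that binds acetylated histones, was the highest at -0.0618. The heterochromatin protein gene Cbx5 followed at -0.304, and its relative Cbx1 was the lowest member of all at -2.57 ± 0.557. Cbx1 also had the widest spread between mice of the genes described here. Its probe sat at place 8, where all probes averaged 0.309. Of the histone methyltransferases, 5 of 12 were above 0, led by Setdb1, which silences retroelements, at 1.05 and by Setd1b, of a complex acting at active promoters, at 0.327. Setd5 was the lowest at -1.71, and its probe sat at a place where all probes averaged -0.796. The pair that methylates histone H3 in silent euchromatin was split, Ehmt1 at 0.0245 and Ehmt2 at -1.09. Ezh1, a Polycomb methyltransferase of mature cells, stood at -0.482 and Setd1a at -0.0500.

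Demethylases held a pair of high probes. Kdm7a averaged 1.46 ± 0.0923 and the X-linked Kdm5c, which removes methyl groups from active promoters, 1.44 ± 0.156, whereas Kdm3a was the lowest at -0.769. Of the deacetylases, Hdac1 stood at 0.364 and Hdac11 at 0.196, against -0.464 for Hdac2 and -0.852 for Hdac3, the lowest. The Hdac3 probe sat at place 14, where all probes averaged 0.576. Sirt1, the NAD-dependent deacetylase, averaged -0.0690. Both DNA methyltransferase genes lay just above 0. Dnmt3l, a cofactor without catalytic activity known from germ cells, stood at 0.119, and the de novo enzyme Dnmt3a, abundant in neurons, at 0.0866.

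**Figure D1:**
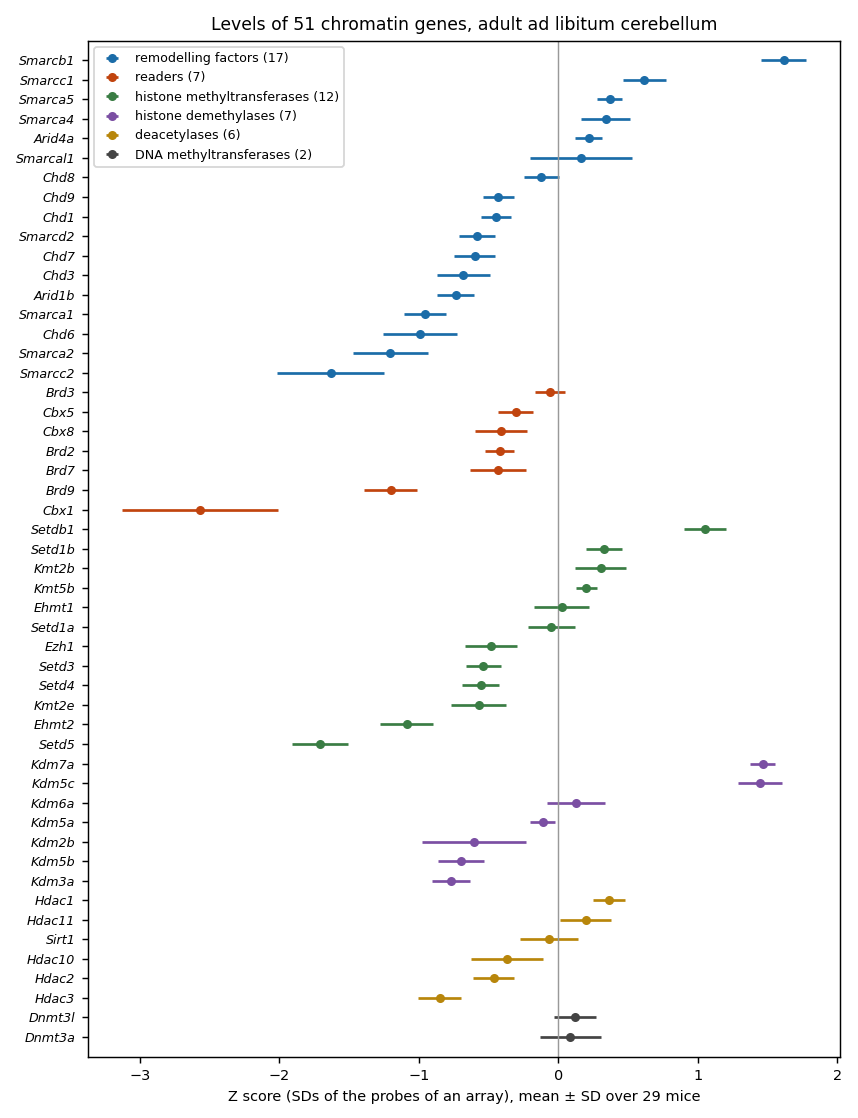
Mean Z score of each of the 51 chromatin genes (horizontal axis, SDs of the probes of an array) with the SD over 29 adult ad libitum mice (bars), by class. The genes run from Smarcb1 at 1.61 to Cbx1 at -2.57, and all 7 readers lie below 0.

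Many genes of this kind are transcribed from CpG-rich promoters, and the members share that feature. RefSeq windows (GRCm38.p6) from 250 bases before to 50 bases after a start were on hand for 40 of the 51 genes, and for 27 of them the window lay within 200 bases of the gene's own 5′ end. A window was called CpG-rich at a GC content of 55% or more and an observed-to-expected CpG ratio of 0.6 or more. By that rule 23 of 27 members (85.2%) were CpG-rich, against 28.7% of 23490 genes. The 23490 were all genes with such a window, not selected for being on the filter or by gene type. The share among the genes on the filter is not given here. The members' windows held a median of 28 CpGs, against 6 over all genes. The windows with the most and the fewest CpGs among the members are shown, with each CpG in capitals, as the ends of that range. Kdm7a (chr6:39206724-39207023, minus strand) had 65 CpGs, and Dnmt3l (chr10:78042037-78042336, plus strand), the germ cell cofactor, had 6.
Kdm7a: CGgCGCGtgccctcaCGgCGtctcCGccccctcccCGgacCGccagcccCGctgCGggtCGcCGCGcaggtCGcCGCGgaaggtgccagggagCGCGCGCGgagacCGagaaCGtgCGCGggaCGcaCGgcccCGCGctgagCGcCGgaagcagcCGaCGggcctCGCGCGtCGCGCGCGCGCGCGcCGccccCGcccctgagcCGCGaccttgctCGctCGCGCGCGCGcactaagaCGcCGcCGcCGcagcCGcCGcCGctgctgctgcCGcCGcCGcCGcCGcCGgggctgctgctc
Dnmt3l: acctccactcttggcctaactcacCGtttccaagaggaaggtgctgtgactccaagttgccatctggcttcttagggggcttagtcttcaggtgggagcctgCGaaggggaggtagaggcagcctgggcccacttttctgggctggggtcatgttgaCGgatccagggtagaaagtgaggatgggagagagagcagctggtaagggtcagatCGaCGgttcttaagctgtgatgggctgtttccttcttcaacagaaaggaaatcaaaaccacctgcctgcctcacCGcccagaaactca
The count is a description of the sequence. No methylation was measured.

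Genes with more than 1 probe allowed probes of the same name to be compared. There were 14 such members and 16 pairs of probes. In 7 pairs the probes' mean Z scores lay more than 1 unit apart. Chd9, a remodeller, had probes at 0.996 and -1.88, and Kdm5b, a demethylase of active promoters, at 0.714 and -2.14. Their lower probes sat at places 22 and 20 of the run of 22 probes, where all probes averaged -0.796 and -0.950. Their higher probes sat at places 15 and 6, with averages of 0.438 and 0.121. The part of place in these gaps was not tested. Brd3, with 3 probes, had them at 0.435, 0.338 and -0.928. After removal of the group means, the 2 probes of a gene correlated over the 63 arrays by a median of -0.0668, against 0.116 for 826 pairs of other genes. In 10 of the 16 pairs the correlation was below 0. Of the 826 pairs of other genes, 334 were below 0 and 155 above 0.5. The correlation of probes with different names is not given here. Setdb1 was the only member whose probes moved together by more than 0.5 (r = 0.71). The probes of Kmt5b moved in opposite directions (r = -0.627), as did those of Hdac2 (r = -0.482). The average of Kmt5b varied less (SD 0.0991 over 63 arrays) than its probes (0.180 and 0.194). The other pairs, of Smarcb1, Smarca5, Smarca1, Chd1, Brd2, Cbx5, Kdm7a and Kdm5a, had correlations between -0.240 and 0.174. The arrays are shared by both probes of a pair, and the correlations are given as a description.

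**Figure D2:**
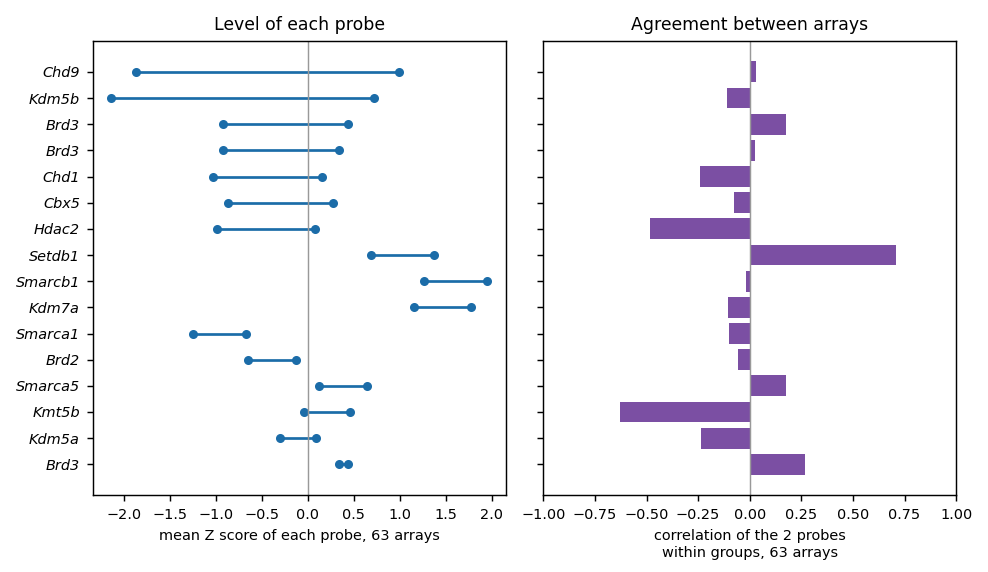
Left, the mean Z score of each probe for the 16 pairs of probes that share a member gene, joined by a line. Right, the correlation of the 2 probes over 63 arrays after group means were removed. Chd9 and Kdm5b have the widest gaps, and only Setdb1 has a correlation above 0.5.

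No member passed the adjusted threshold in any of the 14 comparisons. The young mice came closest, and they are given first. At 6 months against 17-21 days, limma called 32 of 7782 features (0.411%) at an adjusted p under 0.05, and 0 of 51 members. At an unadjusted p under 0.05 there were 3 members (5.88%), against 10.7% of all features. At 33-44 against 17-21 days, 24 features (0.308%) and 0 members were called, with 3 members (5.88%) and 13.4% of features at an unadjusted p under 0.05. At 6 months against 33-44 days, 0 features (0%) and 0 members were called, with 1 member (1.96%) and 1.72% of features at an unadjusted p under 0.05. With all 63 arrays the members' share was below that of all features in both comparisons with 17-21 days. Without 1 male of 17-21 days, whose array had the lowest correlation of those used, it was 5.88% against 4.14% of features at 6 months and 5.88% against 6% at 33-44 days. The members' median absolute difference at 6 months against 17-21 days was 0.0567 Z units, and that of all features 0.0875.

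Kmt5b, which adds methyl groups to histone H4 in silent chromatin, had the smallest p in both comparisons with 17-21 days, and lower values at the older ages. Its Z scores were -0.045, 0.11, 0.365, 0.275 and 0.18 at 33-44 days, against 0.305, 0.235, 0.285, 0.48 and 0.40 at 17-21 days. At 6 months they ran from 0.09 to 0.285 with a median of 0.225. The 17-21-day mice lay mostly above both older groups, with some overlap. The difference was -0.205 at 33-44 days (95% interval -0.323 to -0.0866, adjusted p = 0.124, limma) and -0.153 at 6 months (-0.254 to -0.0510, adjusted p = 0.239). Each of its probes alone was also lower at 6 months, by -0.199 and -0.106, with limma's unadjusted p of 0.0483 and 0.317. Within the runs of array numbers, the sign held in 4 of 4 runs at 6 months but in 1 of 3 at 33-44 days.

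Hdac1, a class I deacetylase, had Z scores of 0.23, 0.21, 0.37, 0.40 and 0.32 at 33-44 days, against 0.37, 0.49, 0.48, 0.50 and 0.46 at 17-21 days. A pair of the 33-44-day males reached the lowest of the 17-21-day mice. The difference was -0.172 (95% interval -0.309 to -0.0344, adjusted p = 0.274, limma). Setdb1 went the other way. It had Z scores of 1.15, 1.045, 0.855, 0.75 and 1.385 at 33-44 days, against 0.90, 0.835, 0.82, 0.695 and 0.78 at 17-21 days, with a range of 0.79 to 1.395 and a median of 0.96 at 6 months. Of the 5 mice of 33-44 days, 3 lay above every mouse of 17-21 days and the other two within their range. Setdb1 was higher by 0.253 at 33-44 days (0.0339 to 0.471, adjusted p = 0.316, limma) and by 0.208 at 6 months (0.0199 to 0.396, adjusted p = 0.455), and both of its probes were higher, by 0.175 and 0.241 at 6 months. Within the array runs the sign held in 4 of 4 at 6 months but in 1 of 3 at 33-44 days. Without the male at 1.385 the 33-44-day difference was 0.155 (unadjusted p = 0.149, limma), and with the array run as a block it was 0.157 (unadjusted p = 0.0927). Chd8, a remodeller linked to autism, was 0.162 higher at 6 months (0.00840 to 0.316, adjusted p = 0.457, limma), and 0.0751 higher (unadjusted p = 0.207) once probe position was corrected for.

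Setd4, a SET domain methyltransferase, had the smallest p between 33-44 days and 6 months. Its Z scores at 6 months ran from -0.69 to -0.28 with a median of -0.585, against -1.37, -0.69, -0.77, -0.52 and -0.57 at 33-44 days. A single female at -1.37 stood apart from all others. The difference was 0.271 (0.110 to 0.432, adjusted p = 1, limma), and without that female it was 0.101 with an unadjusted p of 0.241. Without the other 33-44-day female, so that the outlying one alone stood for its sex, the difference was 0.441 with an adjusted p of 0.00418.

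Kdm5a, a demethylase of active promoters, rested on a single mouse in the same way. A male of 17-21 days read -0.72, whereas the other mice of that age read 0.005, -0.18, -0.155 and 0.135, and the 5 mice of 33-44 days lay between -0.225 and -0.075. The array of this male had the lowest correlation of those used (0.921). Without the other male of the group, 572 features and the single member Kdm5a were called at 6 months against 17-21 days (difference 0.317, adjusted p = 8.74e-05, limma), and Kdm5a and Kmt5b at 33-44 days (adjusted p of 0.00182 and 0.0244). Without the outlying male itself, 1 feature and 0 members were called in each of these 2 comparisons, with 3 members (5.88%) in each at an unadjusted p under 0.05, against 4.14% and 6% of features, and Kmt5b differed by -0.133 at 6 months and by -0.185 at 33-44 days. At 6 months against 17-21 days the number of features called ran from 0, without any of the 3 females of 17-21 days, to 572.

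**Figure D3:**
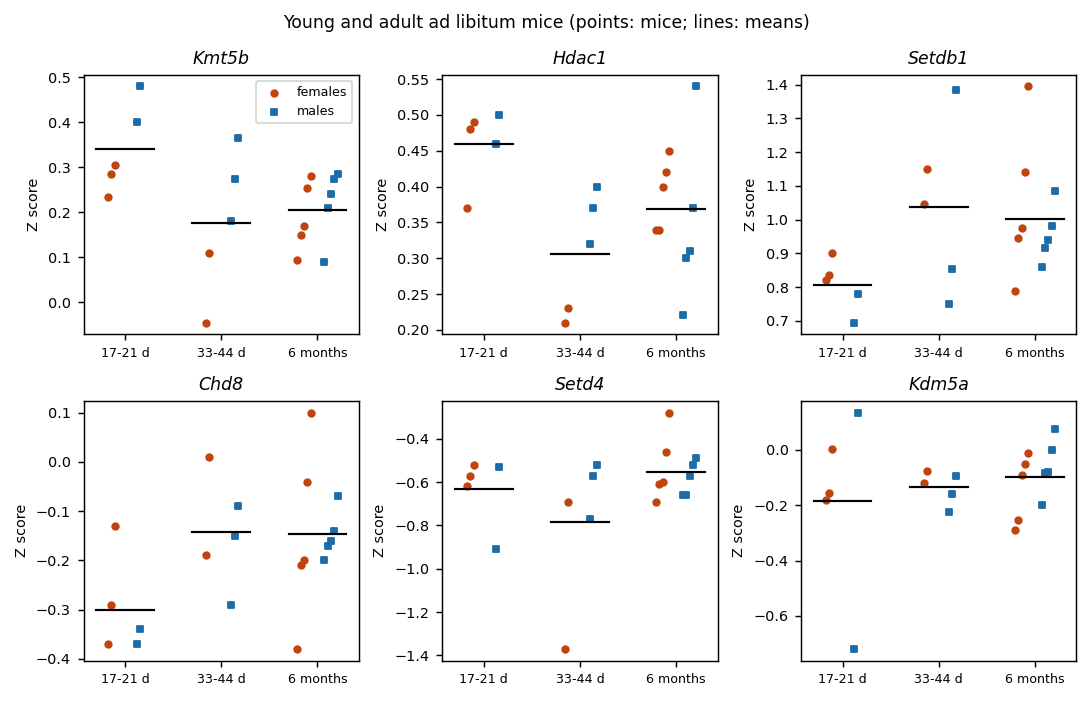
Z scores of 6 chromatin genes in single ad libitum mice (circles, females; squares, males) at 17-21 days, 33-44 days and 6 months, with group means as lines. Kmt5b and Hdac1 lie highest at 17-21 days with overlap, 1 female of 33-44 days reads -1.37 for Setd4, and 1 male of 17-21 days reads -0.72 for Kdm5a.

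No member was called between adult ages on ad libitum feed. At 16 against 6 months 0 features (0%) and 0 members were called, and 0 members had an unadjusted p under 0.05, against 1.34% of features. At 24 against 16 months 0 features (0%) were called, and 1 member (1.96%) had an unadjusted p under 0.05, against 3.92% of features. At 24 against 6 months 0 features (0%) were called, and 3 members (5.88%) had such a p, against 2.49% of features. Over the 51 members the median change to 24 months was 0.0208, with 29 higher and 22 lower, against -0.000375 over all features. For 41 of the 51 genes the 95% interval of that change was narrower than 0.2 Z units on either side.

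The 3 members with the smallest p at 24 against 6 months were Brd2, Kdm5b and Ezh1. Brd2, a BET protein that reads acetylated histones, ran from -0.69 to -0.345 with a median of -0.46 at 24 months, against -0.54 to -0.16 with a median of -0.378 at 6 months. The groups overlapped over most of their range. It was lower by -0.109 (-0.203 to -0.0155, unadjusted p = 0.0232, adjusted p = 1, limma), and within the array runs in 5 of 5. Both of its probes were lower, by -0.118 and -0.101. Kdm5b was 0.172 higher (0.0118 to 0.333, unadjusted p = 0.0359, adjusted p = 1). That change came from its dim probe (0.364), while the brighter probe changed by -0.0198. Ezh1 was 0.149 higher (0.00133 to 0.297, unadjusted p = 0.0480, adjusted p = 1).

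For 3 genes the values are given by sex, chosen after they had been seen. In Ezh1 the 24-month males read -0.35, -0.15, -0.25 and -0.16, against -0.49, -0.52, -0.79, -0.57 and -0.51 in the 6-month males, with no overlap, whereas the females read -0.50, -0.51, -0.53, -0.77 and -0.56 at 24 months, against -0.48, -0.76, -0.47, -0.82 and -0.09 at 6 months. In Brd2 the 24-month males read -0.44, -0.69, -0.51 and -0.565, against -0.33, -0.41, -0.16, -0.31 and -0.425 in the 6-month males, again with no overlap. Kdm5c followed the pattern of Ezh1, at 1.46, 1.63, 1.67 and 1.66 in the old males, against 1.34, 1.21, 1.28, 1.37 and 1.33 in the 6-month males. The male changes were 0.349 for Ezh1, -0.224 for Brd2 and 0.299 for Kdm5c, and the female ones -0.0500, 0.00600 and -0.0300. The test of the difference between the sexes gave an unadjusted p of 0.00925, 0.0169 and 0.0261 for these genes and an adjusted p of 0.289 for each (limma). This test was added after the values had been seen. The share of all features with such a p is not given here. Nor is the share with no overlap between the males of 6 and 24 months. Without these shares the pattern cannot be called particular to these genes. The ad libitum 24-month males numbered 4.

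Sirt1 was 0.170 lower at 24 than at 6 months on ad libitum feed (difference -0.170, -0.367 to 0.0262, unadjusted p = 0.0880, limma) and 0.186 lower on restriction (difference -0.186, -0.403 to 0.0304, unadjusted p = 0.0904). Its Z scores ran from -0.36 to 0.12 with a median of -0.12 at 24 months ad libitum and from -0.19 to 0.22 with a median of 0 at 6 months ad libitum. In restricted mice they ran from -0.90 to 0.07 with a median of -0.22 at 24 months and from -0.33 to 0.18 with a median of 0.03 at 6 months. All groups overlapped, and 1 restricted female at -0.90 was far below the rest. Without this female the difference on restriction was -0.0938 (unadjusted p = 0.367, limma). Sirt1 also moved with the array run. Its mean over adult mice was 0.0208, 0.120, -0.0409, -0.151 and -0.315 in runs 1 to 5, and within runs the sign of the age difference held in 4 of 5 for each diet. Ezh1 and Kdm5c moved with the runs as well, the fifth run averaging -0.308 and 1.64, against -0.580 to -0.473 and 1.33 to 1.46 in the other runs.

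At 24 against 16 months the member with the smallest p was Arid1b, a BAF subunit mutated in intellectual disability. It ran from -0.78 to -0.54 with a median of -0.68 at 24 months, against -1.04 to -0.56 with a median of -0.84 at 16 months, and was higher by 0.135 (0.00610 to 0.263, unadjusted p = 0.0404, limma) in 5 of 5 array runs. The 24-month range was the narrower and lay almost wholly inside that of 16 months. Kdm5b (0.157, unadjusted p = 0.0546) and Arid4a (-0.0833, unadjusted p = 0.0765) came next, the last at -0.0342 once probe position was corrected for. At 16 against 6 months the smallest p were those of Setd3, a methyltransferase of actin (0.115, unadjusted p = 0.0845), Chd1, a remodeller of transcribed genes (0.0830, unadjusted p = 0.105), and Hdac2 (-0.0930, unadjusted p = 0.116). Chd1 differed by 0.0370 without 1 female of 6 months, and Hdac2 by -0.0404 without 1 female of 16 months.

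**Figure D4:**
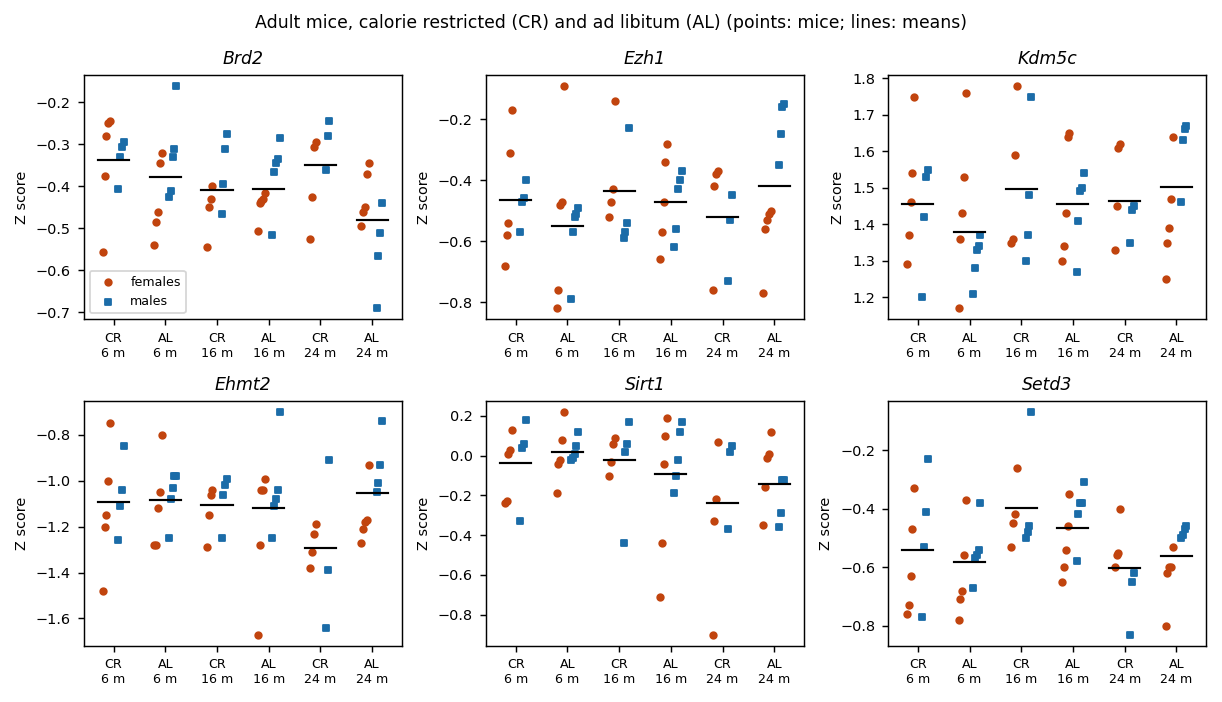
Z scores of 6 chromatin genes in single adult mice (circles, females; squares, males), restricted (CR) and ad libitum (AL) at 6, 16 and 24 months, with group means as lines. In Ezh1, Brd2 and Kdm5c, chosen after their values had been seen, the 24-month ad libitum males lie apart from the 6-month ones. Ehmt2 has its lowest mean, -1.29, in restricted mice of 24 months.

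Under calorie restriction no member was called either. At 16 against 6 months 0 features (0%) and 0 members were called, and 0 members had an unadjusted p under 0.05, against 2.13% of features. At 24 against 16 months 0 features (0%) were called, and 2 members (3.92%) had an unadjusted p under 0.05, against 2.51% of features. At 24 against 6 months 0 features (0%) were called, and 1 member (1.96%) had such a p, against 1.12% of features. The median change of the members to 24 months was -0.000167, with 25 higher and 26 lower, against 0.00125 over all features.

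Setd3 had the smallest p at 24 against 16 months in restricted mice. It read between -0.83 and -0.40 with a median of -0.60 at 24 months, against -0.53 and -0.07 with a median of -0.455 at 16 months. Of the 7 mice of 24 months, 6 lay below every mouse of 16 months. The difference was -0.218 (-0.370 to -0.0648, unadjusted p = 0.00610, adjusted p = 0.999, limma), with the same sign in 3 of 4 array runs. The remodeller Chd3, an ATPase of the NuRD complex, read between -0.88 and -0.61 at 24 months, against -0.78 and -0.23 at 16 months. It was lower by -0.183 (-0.359 to -0.00648, unadjusted p = 0.0424, limma). Without the 16-month female at -0.23 the Chd3 difference was -0.135 (unadjusted p = 0.133, limma). Once probe position was corrected for, it was -0.154 (unadjusted p = 0.0931, limma). At 24 against 6 months Ehmt2, which methylates histone H3 in silent euchromatin, read between -1.64 and -0.91 with a median of -1.31 in the old mice, against -1.48 and -0.75 with a median of -1.11. It was lower by -0.205 (-0.398 to -0.0116, unadjusted p = 0.0381, adjusted p = 1), with the same sign in 3 of 5 runs. Leaving out 1 of the 3 restricted males of 24 months moved it to -0.123 (unadjusted p = 0.225, limma), and leaving out another to -0.306.

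The faulty arrays matter most here. With all 66 arrays kept, Sirt1 averaged -0.543 at 16 months on restriction, with a lowest value of -2.64, against -0.0213 over the 8 arrays used, and its difference between 24 and 16 months was 0.338, against -0.201 without the faulty arrays (unadjusted p = 0.0744, limma). Arid4a, which binds the retinoblastoma protein, averaged -0.372 with all arrays and 0.193 without the faulty ones, and its difference between 16 and 6 months was -0.652 with all arrays and -0.0875 without them. Brd2 differed by -0.295 with them and by -0.0714 without them at the same ages. Even then no member passed the adjusted threshold.

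Diet was compared at each adult age. At 6 months, restricted against ad libitum, 0 features (0%) and 0 members were called, and 0 members had an unadjusted p under 0.05, against 0.655% of features. At 16 months 0 features (0%) and 0 members were called, and 0 members had such a p, against 2.13% of features. At 24 months 0 features (0%) were called, and 3 members (5.88%) had an unadjusted p under 0.05, against 2.25% of features. The members with the smallest p at 6 months were Chd9 (-0.0891), Ezh1 (0.0845) and Kdm6a (0.113), and at 16 months Smarcc1 (-0.107), Setd4 (-0.109) and Ehmt1 (0.130), with limma's unadjusted p between 0.0899 and 0.278. With single mice left out, Ezh1 lay between 0.0475 and 0.139, Kdm6a between 0.0710 and 0.175 and Smarcc1 between -0.126 and -0.0695, and with all 66 arrays Setd4 was at -0.0220.

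The 24-month diet comparison named Brd2, Ehmt2 and Arid4a. Brd2 ran from -0.525 to -0.245 with a median of -0.305 in restricted mice, against -0.69 to -0.345 with a median of -0.46 in ad libitum mice. It was 0.146 higher on restriction (0.0431 to 0.250, unadjusted p = 0.00633, adjusted p = 0.999, limma), in 5 of 5 array runs. The difference was 0.256 in males and 0.0365 in females, and the restricted males were the younger ones. Ehmt2 ran from -1.64 to -0.91 with a median of -1.31 on restriction, against -1.27 to -0.74 with a median of -1.05 ad libitum. It was lower by -0.253 (-0.446 to -0.0599, unadjusted p = 0.0112, limma), in 4 of 5 runs. Leaving out 1 restricted male moved the Ehmt2 difference to -0.1715 (unadjusted p = 0.0934, limma), and leaving out another to -0.354. In males it was -0.381, and there too the restricted mice were the younger ones. Arid4a ran from 0.21 to 0.36 on restriction, against 0.08 to 0.26 ad libitum, and was 0.117 higher (0.0155 to 0.219, unadjusted p = 0.0248). In females alone, whose ages matched, the Arid4a difference was 0.149 and that of Ehmt2 -0.126. Brd2 and Ehmt2 both lie in the major histocompatibility region of chromosome 17 (GRCm38.p6, 34112019-34122814 and 34898463-34914073) and differed in opposite directions.

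**Figure D5:**
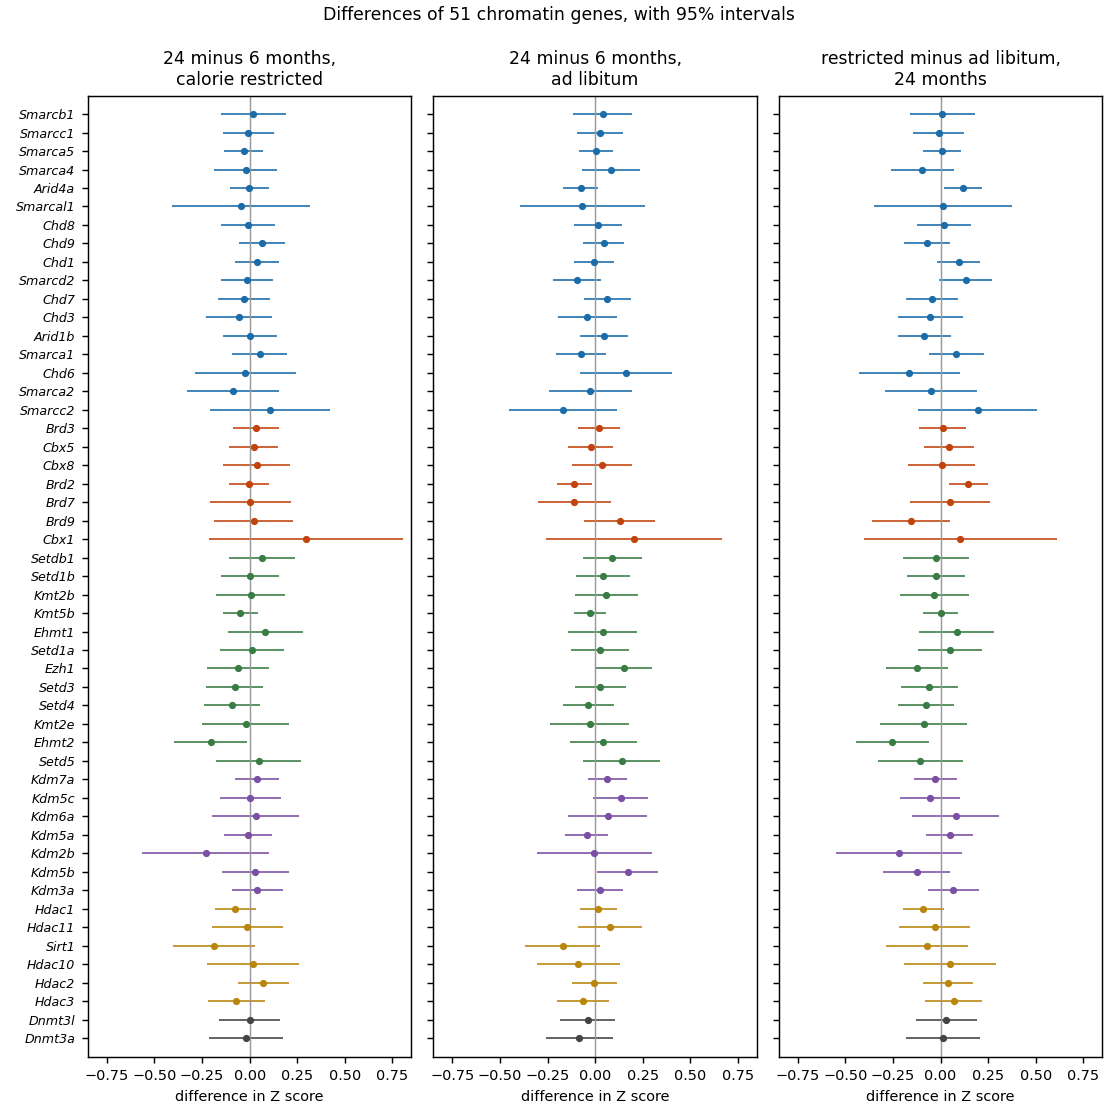
Difference in Z score of each chromatin gene (points) with its 95% interval (bars), for 24 minus 6 months on restriction, 24 minus 6 months ad libitum, and restricted minus ad libitum at 24 months. Colours mark the classes, from remodelling factors at the top to DNA methyltransferases. Most intervals cross 0; the exceptions are Ehmt2 on restriction, Brd2, Kdm5b and Ezh1 ad libitum, and Brd2, Ehmt2 and Arid4a for diet, and no gene passed the adjusted threshold.

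The test of whether diet altered the change from 6 to 24 months called 0 features (0%) and 0 members, and 0 members had an unadjusted p under 0.05, against 0.9% of features. Ezh1 (-0.210, -0.430 to 0.0102, unadjusted p = 0.0612, limma), Ehmt2 (-0.248, unadjusted p = 0.0624) and Brd2 (0.105, unadjusted p = 0.136) had the smallest p. In females alone the Ezh1 value was 0.0235 and the Brd2 value -0.0525. By class, 10 of 12 histone methyltransferases and 5 of 7 demethylases had a lower change on restriction than ad libitum, and 6 of 7 readers a higher one. The medians were -0.0462, -0.0338 and 0.0449, against 0.00258 over all features. Genes of a class were read on the same arrays and are not replicates, and these counts were not tested. The share of all features that were lower is not given here. In the diet comparison at 24 months, with the same 24-month mice, 10 of 12 methyltransferases and 4 of 7 demethylases were lower and 6 of 7 readers higher.

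Females against males over the adult groups gave 0 called features (0%) and 0 called members, and 0 members had an unadjusted p under 0.05, against 1.29% of features. Kdm2b, which brings Polycomb proteins to CpG islands, had the smallest p, lower in females by -0.162 (-0.343 to 0.0195, unadjusted p = 0.0792, limma). The X-linked members were of interest because Kdm5c and Kdm6a escape X inactivation in mouse. Kdm5c averaged 1.47 ± 0.164 in 28 females and 1.44 ± 0.144 in 25 males (SD), a difference of 0.0300 ± 0.0870 (95% interval). Kdm6a averaged 0.134 ± 0.220 in the females and 0.166 ± 0.211 in the males, and Smarca1, the ATPase SNF2L, -0.964 ± 0.175 in the females and -0.955 ± 0.0808 in the males. None of the 3 separated the sexes on this filter.

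The class medians moved little between groups. Remodelling factors lay between -0.509 and -0.452 in the 8 groups of age and diet, readers between -0.481 and -0.386, methyltransferases between -0.307 and -0.214, demethylases between -0.183 and -0.0763, and deacetylases between -0.314 and -0.111. The 2 DNA methyltransferases averaged between 0.0620 and 0.140. Among the other genes with a fixed interest, the change from 6 to 24 months ad libitum was 0.0838 for Smarca4, -0.0248 for Smarca2, 0.0400 for Smarcb1, 0.0233 for Smarcc1, 0.0165 for Hdac1, -0.00388 for Hdac2, -0.0645 for Hdac3, -0.0838 for Dnmt3a, -0.0243 for Cbx5 and 0.205 for Cbx1. The interval of Hdac1 ran from -0.0815 to 0.115, whereas that of Cbx1 ran from -0.256 to 0.667, so only large shifts of Cbx1 could have been seen.

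Partners of these enzymes were read from lists. Of 62 measured genes in 8 lists of partners (Polycomb subunits, acetyltransferases, corepressors of deacetylases, other methyltransferases, other remodelling subunits, histone chaperones, readers and erasers of DNA methylation, and other demethylases), 0 were called in any comparison by limma. At an unadjusted p under 0.05 there were 9 (14.5%) at 6 months against 17-21 days, 4 higher and 5 lower, against 10.7% of all features. Without the 17-21-day male of lowest array correlation the share of all features was 4.14%, and the partners were not counted again. At 24 against 6 months ad libitum there were 3 (4.84%), all lower, against 2.49% of all features. At 6 months against 17-21 days the higher ones were the acetyltransferase Kat2b, the acetyltransferase scaffold Brpf1, the corepressor subunit Sap18 and the BAF subunit Bcl7c, and the lower ones were the remodellers' genes Hells and Ino80c, the histone chaperone Nap1l1 and the Polycomb-linked Pcgf3 and Asxl1. At 24 against 6 months ad libitum the lower ones were Rbbp5, Dpf2 and Nasp. The lists of other demethylases and of readers and erasers of DNA methylation had no gene with such a p in either comparison.

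Of the cell type markers, 0 were called by limma in any comparison. At 6 months against 17-21 days the Purkinje cell gene Car8 was 0.290 higher (unadjusted p = 0.00750) and Calb1 differed by -0.161 (unadjusted p = 0.0268). The glial gene Vim was 0.248 higher (unadjusted p = 0.00570) and the meningeal gene Col1a2 0.172 higher (unadjusted p = 0.0139). Other genes of these lists did not all go the same way. The glial gene Slc1a3 averaged 0.0505 at 6 months, against 0.112 at 17-21 days. Of the meningeal genes, Col1a1 averaged 0.293 against 0.366, Dcn -0.521 against -0.590 and Col3a1 0.673 against 0.609. Of the 4 markers of dividing cells on the filter, 3 were lower, Ccna2 by -0.163 (unadjusted p = 0.0446), and their mean per mouse lay between -0.279 and -0.174 in the 6-month mice, against -0.231 and -0.144 in those of 17-21 days. In the adult comparisons only Dcn of the meninges and Alas2 of blood had an unadjusted p under 0.05, and no marker of microglia had one in any comparison. The marker differences at 6 months against 17-21 days were not computed again without the 17-21-day male of lowest array correlation. The part of these cell types in the members' values was not tested.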

How the data were processed

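Values were the Z scores that the authors deposited, 1 column per array, made by Z score transformation of each array. The study's methods state that samples were processed in balanced batches. No source used here says whether logarithms came first. Background and spot quality were not part of the table, and precision is limited by how many arrays there were. Probes with several symbols (224) or none (3349) named no gene, 8 of the former holding a symbol of these families.

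Probes of a gene were averaged, and 7782 features (4209 genes and the remaining probes singly) were fitted without a filter in limma 3.58.1 under R 4.3.3 (lmFit, contrasts.fit, eBayes) with 1 mean for each of 16 groups of sex, age and diet, 12 of them adult, sexes weighted equally, on 63 arrays (47 residual degrees of freedom). Arrays whose median correlation with the others was under 0.9 were left out. Calls needed an adjusted p (Benjamini-Hochberg, all features) under 0.05 in a two-sided test. Each array was a different mouse. No pair of arrays was identical (highest correlation 0.988). The model was checked on simulated data with independent normal errors, without effects of array run, probe position or poor arrays.

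Named genes were those called or, with none called, the 3 with the smallest p of a comparison, the 2 highest and the lowest of each class, a list of well-known members, and members with more than 1 probe. The values of Kdm5a, and those of Brd2, Ezh1 and Kdm5c by sex, were chosen after they had been seen. Members, gene lists and tests were chosen with earlier results of these data known. Alternatives were all 66 arrays, features with a mean above 0, the brightest probe, quantile normalization, a correction for probe position, the array run as a block, array weights, robust variances, the criteria of the study (a Z-ratio of 1.5, a mean above 0 and an unadjusted p under 0.05), each array left out in turn and, for comparisons with the oldest restricted mice, females alone.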

Additional observations from a re-analysis of the deposited data

Results flagged for a closer look

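The 3 members with the smallest p of each comparison other than that of the sexes were examined in each group compared, 64 pairs of a gene and a group. In 5 of them 1 mouse lay further from the others than Dixon's 95% critical value allows, and chance flags about 1 in 20 such pairs. Chd1 read -0.88 in a 6-month ad libitum female, the nearest mouse being at -0.5. Chd3 read -0.23 in a restricted female of 16 months, against -0.54 in the nearest. Ezh1 read -0.09 and Kdm6a 0.59 in the same 6-month ad libitum female, with the nearest mice at -0.47 and 0.15. Hdac2 read -0.96 in a 16-month ad libitum female, with the nearest at -0.615.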

How the results depend on the processing

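The count of 0 called members held in all 14 comparisons under every alternative but these. The criteria of the study, which do not adjust p, called 1 member at 6 months against 17-21 days (Setdb1). Array weights called 1 at 6 months against 33-44 days (Setd4, 0.315, adjusted p = 0.0271). With each array left out in turn, the counts ran from 0 to 1 at 6 months against 17-21 days, from 0 to 2 at 33-44 against 17-21 days and from 0 to 1 at 6 months against 33-44 days. Of 672 alternative values for 70 member differences, in which the arrays left out in turn enter by the lowest and the highest difference, 666 kept their direction and side of the threshold, 2 passed it (Setd4, with array weights and with 1 female left out, 0.441) and 4 changed sign. Kmt5b at 33-44 against 17-21 days, not at either end, also passed without 1 male of 17-21 days (-0.225, adjusted p = 0.0244, limma). The changes of sign were Kdm5b at 24 against 6 months ad libitum with the brightest probe alone (-0.0198), Sirt1 at 24 against 16 months on restriction with all 66 arrays (0.338), and the diet effect on ageing in females alone for Ezh1 (0.0235) and Brd2 (-0.0525). The first follows from using 1 of 2 unlike probes and the second from the 2 faulty arrays. The cause of the others was not tested. Quantile normalization and position correction shifted the median of all features by at most 0.00414 Z units. The labels give no replicate numbers that would pair mice across groups. The array run was fitted as a block instead, and 0 members were called with it in all 14 comparisons.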
